A study of Mus musculus with 3 samples.

Results

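Olfactory sensory neuron-like cells were chosen from 3 single-cell RNA-seq libraries of mouse embryonic palate. A cell was chosen if it had at least 500 detected genes, a UMI (a counted molecule) of at least 2 of Gng13, Gng8, Tex15, Atp8b4, Tesc, Cnpy1 and Fstl5, a UMI of at least 1 of the neuronal genes Stmn2, Tubb3 and Gap43, and none of Gad2, Slc32a1 or Neurod6, which mark inhibitory and cortical neurons. The rule found 338 of 8107 cells. They were 62 of 3692 cells at E13.5 (1.68%, 95% exact binomial interval 1.29 to 2.15), 118 of 1775 at E14.5 (6.65%, 5.53 to 7.91), then 158 of 2640 at E15.5 (5.98%, 5.11 to 6.96). Each library held palatal shelves of 3 pooled C57BL/6J (wt) embryos, dissociated with TrypLE and fixed in methanol before droplet capture, and no group carried a mutation, a transgene or a treatment. Each stage was 1 library, so no difference here has a replicate check, stage and library cannot be told apart, and every interval covers counting error only.

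Olfactory sensory neurons are the odorant-detecting neurons of the nasal epithelium, which lies above the developing palate and is not part of the palatal shelf proper. They arise from basal progenitors whose daughters switch on Neurog1 and Neurod1, pass through an immature stage marked by Gap43 and Gng8, and end as mature cells with Omp, Gng13 and a ciliary cascade from receptor through Gnal and Adcy3 to the Cnga2 channel. Each mature neuron settles on a single olfactory receptor gene out of a very large family. The transcription factors Lhx2 and Ebf are required for that choice.

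The E13.5 library stood apart from the others before any cell was chosen. It had 1422 cells outside the chosen set with at least 2 of the 3 neuronal genes, against 40 at E14.5 and 44 at E15.5. Its other cells held 755 CPM (UMIs per 1000000 summed UMIs) of 10 mesenchyme genes in sum, against 7260 and 8378 CPM. The labelled tissue is rich in mesenchyme, and the E13.5 library was poor in its markers and rich in other neurons, so every comparison with E13.5 crosses that gap. The libraries shared 3 (E13.5 and E14.5), 1 (E14.5 and E15.5) and 1 (E13.5 and E15.5) cell barcodes, none of them among the chosen cells.

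The chosen cells gave 274406, 741175 and 690803 UMIs at the 3 stages in order, with a median per cell of 3981.5, 2666 and 2886.5 UMIs against 1970, 1856 and 1937 in the other cells. The rule favours deep cells, because it asks for several genes. Shares of cells are therefore also given after every cell was thinned to 1500 UMIs, which left 53, 91 and 118 chosen cells. A count of 0 in the summed chosen cells allowed a level of up to 10.9, 4.05 and 4.34 CPM.

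The choosing genes are described without a test, since they set the membership. Fstl5, a follistatin-like secreted protein at chr3:76074270-76710019 (mm10), was the most abundant, with 402 UMIs in 57 cells at E13.5, 1378 in 115 at E14.5, then 2472 in 152 at E15.5. Gng8, the G protein gamma subunit of immature olfactory neurons, had 64, 159 and 215 UMIs in 41, 62 and 86 cells. Gng13, its counterpart in mature olfactory neurons, lies at chr17:25717171-25719406 and had 48, 217 and 272 UMIs in 13, 37 and 47 cells. Gng13 was thus in the minority of the cells of every library, while Fstl5 was in nearly all of them. Tex15 had 165, 273 and 520 UMIs, Atp8b4, a phospholipid flippase, 43, 150 and 286, Tesc, a calcium-binding protein, 51, 110 and 167 and Cnpy1 21, 65 and 128. Exactly 2 of the 7 genes were found in 31 of 62, 28 of 118 and 27 of 158 cells, so the E13.5 set rested far more on cells at the threshold.

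The label was checked on 10 olfactory markers that the rule does not use (Lhx2, Ebf1, Ebf2, Emx2, Omp, Gnal, Adcy3, Cnga2, Rtp1 and Stoml3). At least 2 of them had a UMI in 44 of 62 chosen cells at E13.5 (71.0%, 58.1 to 81.8), in 111 of 118 at E14.5 (94.1%, 88.2 to 97.6), then in 150 of 158 at E15.5 (94.9%, 90.3 to 97.8). In the other cells the shares were 16.2%, 15% and 10.2%. At 1500 UMIs per cell the chosen shares were 62.3%, 80.2% and 88.1%, the other cells stood at 10.4%, 10.3% and 7.25%, and endothelial or myeloid cells, which also held Ebf1, at 17.4%, 8.33% and 1.20% (median depth before thinning 3900.5, 2875.5 and 2777.5 UMIs). In the chosen cells of E13.5, Omp, Rtp1, Stoml3 and Cnga2 had no UMI, and Gnal and Adcy3 had 3 and 5 UMIs. The share at E13.5 thus rested mostly on the transcription factors Lhx2, Ebf1, Ebf2 and Emx2. The data went with the label in the later libraries, and at E13.5 mainly through these factors.

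Just inside the threshold, with exactly 2 of the 7 genes, at least 2 outside markers were found in 14 of 31 cells at E13.5 (45.2%), 25 of 28 at E14.5 (89.3%), then 22 of 27 at E15.5 (81.5%). Among chosen cells with 3 or more of the 7 genes the counts were 30 of 31 (96.8%), 86 of 90 (95.6%) and 128 of 131 (97.7%). Just outside, with exactly 1 of the 7 genes, a neuronal gene and no excluded gene, they were 57 of 244 (23.4%), 29 of 61 (47.5%) and 21 of 66 (31.8%). Cells at the threshold thus had outside markers less often than the rest of the set at E13.5, and some cells that the rule missed had them at each stage. The exclusion by Gad2, Slc32a1 or Neurod6 removed 61 otherwise passing cells at E13.5, and 11 and 13 later.

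**Figure D1:**
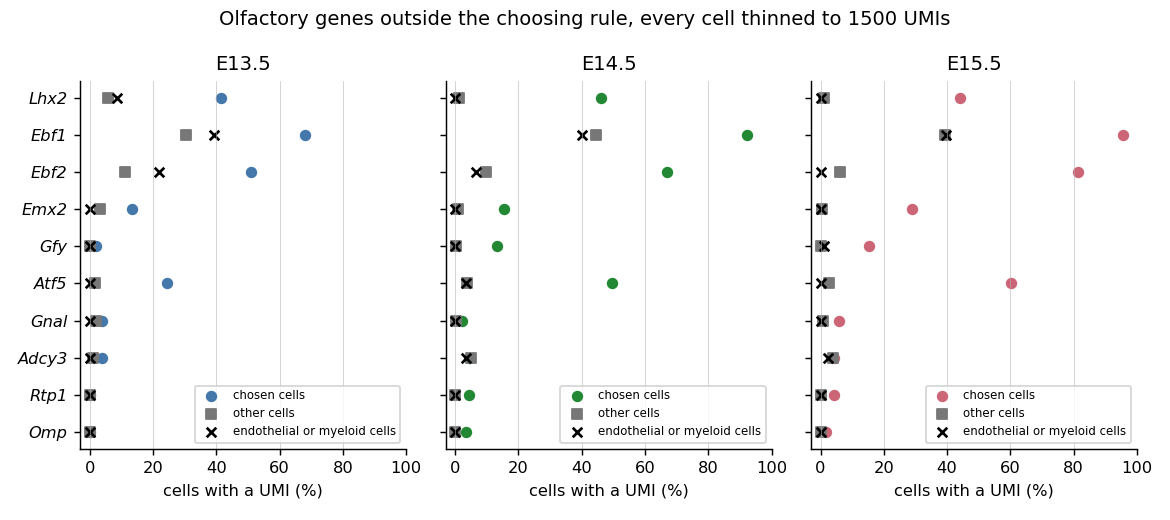
Share of cells (x axis, percent) with a UMI of each of 10 olfactory genes that did not choose the cells, after thinning to 1500 UMIs; circles are the chosen cells, squares the other cells and crosses endothelial or myeloid cells of the same library. Lhx2 was found in 41.5%, 46.2% and 44.1% of chosen cells in stage order, while Ebf1 was also found in 39.1%, 40.0% and 39.8% of the endothelial or myeloid cells.

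Mesenchymal RNA was present in part of the chosen cells. A UMI of at least 3 of the 10 mesenchyme genes (such as Col1a1, Col1a2, Col3a1 and Prrx1) was found in 8 of 62, 43 of 118 and 35 of 158 chosen cells, called mesenchyme-mixed cells below. They held 21.9%, 73.7% and 45.5% of all chosen UMIs, with median depths of 4239.5, 5294 and 6531 UMIs against 3801, 2014 and 2364 in the rest. The largest reached 65518 UMIs at E14.5. At least 2 outside olfactory markers were found in 7 of the 8, 41 of the 43 and 31 of the 35 mixed cells, and in 37 of the 54, 70 of the 75 and 119 of the 123 others. A doublet caller's own threshold called 0, 3 and 2 of the 3692, 1775 and 2640 cells, and was not used to remove cells. The 125, 30 and 66 cells with the highest doublet scores included 2, 4 and 10 of the 8, 43 and 35 mixed cells. They included 1, 1 and 4 of the 54, 75 and 123 other chosen cells. Mixed cells thus had such scores more often than all 3692, 1775 and 2640 cells scored. The source of the mesenchymal RNA was not tested, and this set of mixed cells was defined after the data were seen.

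Genes with a mean of both groups of at least 20 CPM, outside the 13 choosing genes, were called higher or lower at a 4-fold difference (log2 ratio of 2, with 1 CPM added to each level). In the chosen cells 85 of 7199 genes were higher (1.18%) and 43 lower (0.597%) at E13.5. That count depended on how cells were chosen: without the exclusion by Gad2, Slc32a1 or Neurod6 it was 7 higher and 0 lower, and with at least 3 of the 7 genes required it was 210 higher and 199 lower. At E14.5 the counts were 147 higher (1.9%) and 6 lower (0.0777%) of 7722, and at E15.5 342 higher (4.38%) and 108 lower (1.38%) of 7813. Without the mixed cells they were 115 higher (1.62%) and 134 lower (1.88%) at E13.5, 527 higher (6.89%) and 738 lower (9.65%) at E14.5, and 534 higher (6.91%) and 744 lower (9.63%) at E15.5. The count at E14.5 thus depended most on the mixed cells, which held most of the UMIs there. The filter removed cells with mesenchyme genes from the chosen set only. Of the other cells, 72.5% and 73.9% had at least 3 such genes at E14.5 and E15.5. Lower calls of mesenchymal genes thus follow in part from that filter. The 10 mesenchyme genes stayed in the counts, and 10 were 4-fold lower at E14.5, against 0 with all chosen cells. Every count without the mixed cells against other cells has this limit. Measured against other neuronal cells at E13.5, 90 of 7146 genes were higher (1.26%) and 41 lower (0.574%). Higher at all 3 stages were 32 of the 6287 genes that could be counted in all of them (0.509%), and 76 of 6125 (1.24%) without the mixed cells, the 32 being among the 76.

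Most of the counted transcription factors of olfactory neurons passed 4-fold at each stage. Of 12 listed factors, 7 of 12 counted were 4-fold higher at E13.5, 6 of 11 at E14.5, then 7 of 11 at E15.5, none was lower, and the median log2 ratios were 2.22, 2.16 and 3.51 beside 0.01, -0.05 and -0.08 over all genes. Leaving out the mixed cells, 7, 8 and 9 of 12 were higher, with medians of 2.31, 3.24 and 3.82. Lhx2, a LIM homeodomain factor at chr2:38339281-38369733 that is needed for olfactory neuron maturation and receptor gene expression, stood at 339 CPM (274 to 415) at E13.5, 235 CPM (201 to 272) at E14.5, then 346 CPM (303 to 393) at E15.5. In the other cells it stood at 44.8, 17.8 and 12.3 CPM, which gave log2 ratios of 2.89, 3.65 and 4.71. With all chosen cells the level was lowest at E14.5, but in the unmixed cells E14.5 was highest, at 387, 559 and 499 CPM in stage order.

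The Ebf factors (also named Olf-1 family, after the olfactory promoter sites they bind) were the most abundant of the list. Ebf1 stood at 1826, 2337 and 3497 CPM in the chosen cells and 674, 997 and 853 CPM in the others, Ebf2 at 732, 835 and 1697 against 141, 187 and 103, and Ebf3 at 561, 556 and 938 against 119.8, 116 and 81.6. Their log2 ratios were 1.44, 1.23 and 2.03 for Ebf1, 2.37, 2.16 and 4.03 for Ebf2 and 2.22, 2.26 and 3.51 for Ebf3. With all chosen cells Ebf1 passed 4-fold at E15.5 only, and without the mixed cells at E14.5 too, at 2.11. Ebf1 was also widely found outside the neurons. Emx2, a homeodomain factor of olfactory epithelium and forebrain, had 26, 54 and 116 UMIs in 16, 36 and 63 cells, with log2 ratios of 2.28, 2.82 and 4.91. Uncx, another homeodomain factor, had 30, 40 and 58 UMIs and ratios of 2.68, 3.23 and 4.71, and the helix-loop-helix factor Nhlh2 had 63, 51 and 71 UMIs and ratios of 2.55, 2.74 and 4.32. Uncx was a listed gene outside the naming rule, named here after its values were seen, as were Nhlh1 and Nhlh2.

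Outside the rule and all lists, among genes with a mean of both groups of at least 20 CPM in every library, the 12 genes with the highest smallest ratio over the stages were Trim66, Gm16579, Arhgdig, Cpeb1, Ckmt1, Homer2, Spock1, Sgpp2, Rap1gap2, D930020B18Rik, Cystm1 and Thsd7b. Trim66, a chromatin-reading tripartite-motif protein, had 14, 62 and 140 UMIs in 10, 28 and 57 cells, and log2 ratios of 4.34, 4.17 and 5.46. Gm16579, an RNA gene without a given name, had 23, 103 and 166 UMIs and ratios of 4.76, 3.81 and 6.22. Arhgdig stood at 317, 221 and 395 CPM against 11.8, 17.5 and 9.50 in the others. At 1500 UMIs Arhgdig was in 39.6%, 41.8% and 46.6% of chosen cells and in 1.13%, 2.30% and 1.36% of others. Thsd7b, a thrombospondin-domain protein, was the most abundant of the 12 at 1148, 1235 and 2496 CPM. Cpeb1, which controls poly(A) tails of messenger RNA, Homer2, a postsynaptic scaffold, and Spock1, a brain proteoglycan, had smallest ratios of 3.55, 2.80 and 2.59.

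Ebf proteins bind the palindromic pattern CCCNNGGG, which reads the same on both strands, and upstream sequence of 3 genes that hold it is shown because these genes were high in the chosen cells, Gng13 being a choosing gene. The windows are the 250 bases before the gene start (RefSeq, GRCm38.p6). They are chr17:25716922-25717171 on the plus strand for Gng13, chr7:45179598-45179847 on the minus strand for Gfy, a Golgi membrane protein of olfactory neurons, and chr1:172057597-172057846 on the minus strand for Nhlh1, a helix-loop-helix factor of newly formed neurons. Capitals mark the pattern, which starts at position -95 (with an overlapping match at -94) in Gng13, -41 in Gfy and -144 in Nhlh1 relative to the gene start.
Gng13: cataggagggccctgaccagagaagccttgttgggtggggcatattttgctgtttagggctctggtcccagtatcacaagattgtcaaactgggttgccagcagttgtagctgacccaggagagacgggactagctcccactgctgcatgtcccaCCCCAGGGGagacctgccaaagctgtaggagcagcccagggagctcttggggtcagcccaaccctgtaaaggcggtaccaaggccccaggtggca
Gfy: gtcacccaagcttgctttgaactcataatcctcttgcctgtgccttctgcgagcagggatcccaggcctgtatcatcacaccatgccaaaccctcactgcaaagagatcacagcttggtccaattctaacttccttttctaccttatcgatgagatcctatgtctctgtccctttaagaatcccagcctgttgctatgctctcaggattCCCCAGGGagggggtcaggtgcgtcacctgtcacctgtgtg
Nhlh1: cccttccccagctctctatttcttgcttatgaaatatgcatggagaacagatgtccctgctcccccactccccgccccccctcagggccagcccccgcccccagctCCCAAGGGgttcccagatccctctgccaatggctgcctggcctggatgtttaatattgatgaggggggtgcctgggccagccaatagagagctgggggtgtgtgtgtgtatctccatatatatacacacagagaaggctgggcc
The pattern was in 13.4% of all 27025 genes with a RefSeq promoter. It was in 7 of the 25 genes with a promoter (28%) among the 32 genes higher at all stages, and in 17 of 59 (28.8%) among the 76. The homeodomain pattern TAATTA, also its own reverse complement, was in 5.65% of all genes, 5 of the 25 (20%) and 5 of the 59 (8.47%). Some genes had more than 1 window, which gives more chances of a match. The 27025, 25 and 59 genes had 32851, 43 and 87 windows. Per window the shares in this order were 11.8%, 18.6% and 20.7% for CCCNNGGG. For TAATTA they were 4.84%, 11.6% and 5.75%. These are shares of genes or windows with matching letters, not of bound sites.

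Genes of odorant transduction and maturation summed to 940.2, 1101 and 1407 CPM in the chosen cells, against 597, 496 and 431 in the others. Of 18 listed genes, 9 had no UMI in the 62 chosen cells at E13.5, and every one had a UMI in the later libraries, whose chosen cells gave 741175 and 690803 UMIs against 274406, so a sparse gene was easier to detect there. Only 3, 5 and 7 reached the level needed for counting, of which 0, 1 and 4 were 4-fold higher, with medians of 0.53, 0.76 and 2.58. Without the mixed cells 0 of 3, 6 of 9 and 7 of 10 were higher, with medians of 0.62, 3.97 and 3.58. A gene near 0 in the other cells, such as Gfy, reached the level for counting only through the chosen cells. Its call as higher was thus fixed by that filter. Gfy had 5, 54 and 64 UMIs in 4, 31 and 41 cells, or 18.2, 72.9 and 92.6 CPM, against 0.649, 1.38 and 1.40 CPM in the others. Omp, the olfactory marker protein of mature neurons at chr7:98143359-98145502, had 0, 19 and 15 UMIs in 0, 7 and 10 cells. The 0 at E13.5 allows up to 10.9 CPM, below the 25.6 and 21.7 CPM of the later libraries.

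The other transduction genes were also sparse. Gnal, the olfactory G protein alpha subunit, had 3, 26 and 31 UMIs, Rtp1, which carries receptors to the membrane, 0, 13 and 22, Stoml3, a ciliary membrane protein, 0, 11 and 17, and Cnga2, the cyclic-nucleotide-gated channel, 0, 3 and 6. Adcy3, the olfactory adenylyl cyclase, had 5, 29 and 25 UMIs and log2 ratios of 1.24, 0.59 and 0.71, with 7.14, 25.6 and 21.7 CPM in the other cells. Pde1c, the ciliary phosphodiesterase, was broader in the set, with 40, 175 and 206 UMIs in 20, 48 and 72 cells and ratios of 1.50, 1.83 and 2.58. Most transduction genes were thus found in a minority of the cells. Gnb1, the common beta subunit, had ratios of 0.53, 0.76 and 1.22, and Ric8b, the exchange factor of Gnal, -0.34, 0.33 and 0.78.

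Of 8 genes tied to receptor choice, 7 were in the files, and Atf5 alone was 4-fold higher at each stage. Atf5, a stress-induced factor that is translated once a receptor protein is made, had 55, 295 and 471 UMIs in 24, 77 and 117 cells, or 200.4, 398 and 682 CPM against 14.6, 28.6 and 24.7. The histone demethylase gene Kdm1a, which acts in receptor choice, differed by 0.47, 0.50 and 0.85 on the log2 scale, the heterochromatin protein gene Cbx5 by -0.31, -0.34 and -0.71 and the methyltransferase gene Ehmt1 by -0.07, 0.01 and 0.01. The list's medians were 0.00, 0.01 and 0.00, and no counted member other than Atf5 passed 4-fold in either direction.

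Precursor regulators were present beside them. Of 13 listed genes 2 of 10, 3 of 9 and 3 of 9 counted were 4-fold higher and none lower, with medians of 0.27, 0.40 and 0.80. Neurod1, the helix-loop-helix factor of immediate neuronal precursors, stood at 259, 129.5 and 133 CPM against 52.3, 25.8 and 15.51, in 19, 28 and 34 cells. Nhlh1 had 15, 44 and 47 UMIs in 9, 30 and 36 cells and log2 ratios of 3.02, 3.76 and 5.13. The cycling genes Top2a and Mki67 had ratios of -0.37, -0.43 and -0.89 and -0.20, -0.14 and -0.79, and without the mixed cells -0.25, -1.68 and -0.93 and 0.15, -2.35 and -1.84. In the unmixed cells 2 of 10, 4 of 10 and 4 of 8 listed genes were 4-fold higher, and Mki67 alone was 4-fold lower, at E14.5. Neurod1 and Nhlh1 were thus 4-fold higher at each stage, while most listed genes did not pass.

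Neurod1 or Neurog1 and the growth-associated gene Gap43 were mostly in different cells. At E14.5 8 of 118 cells had both, 20 had a precursor gene alone and 61 had Gap43 alone; at E15.5 the counts were 7, 29 and 79 of 158, and at E13.5 6, 13 and 33 of 62. At 1500 UMIs both were found in 3 of 53, 2 of 91 and 2 of 118 cells. Gap43 is 1 of the 3 neuronal genes of the rule, so the counts are a description. The 13, 37 and 47 cells with a Gng13 UMI held 1, 11 and 1 Neurod1 UMIs, against 70, 85 and 91 in cells without Gng13.

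Among growth-cone and cytoskeletal genes of immature neurons, none passed 4-fold at E13.5 and most, but not all, of those counted did at the later stages. Of 17 listed genes 0 of 17, 10 of 17 and 10 of 16 counted were 4-fold higher, with medians of 0.32, 2.25 and 3.00, and without the mixed cells 0 of 17, 13 of 17 and 12 of 16. Rtn1, an endoplasmic reticulum protein of neurons, stood at 1217, 452 and 631 CPM in the chosen cells and 809.6, 58.4 and 35.6 CPM in the others. Stmn1, a microtubule regulator, stood at 3564, 791 and 1338 against 2152, 349 and 329.8, and Map1b, a microtubule-associated protein, at 1068, 881 and 1255 against 728, 162 and 144. At E13.5 the levels of these 3 genes in the other cells lay within 2-fold of those in the chosen cells. Against the other neuronal cells of E13.5, Rtn1, Stmn1 and Map1b differed by 0.10, 0.40 and 0.19 on the log2 scale, while Lhx2 and Atf5 differed by 2.67 and 3.60. The 40 and 44 other neuronal cells of E14.5 and E15.5 carried at least 2 outside olfactory markers in 62.5% and 40.9% of cases, against 23.3% at E13.5, so they were no clean contrast, and Lhx2 differed from them by 1.12 and 1.20.

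Synaptic vesicle genes gave 0 of 9, 1 of 6 and 3 of 7 counted genes 4-fold higher, with medians of 0.70, 1.58 and 1.82, and 0 of 9, 5 of 7 and 6 of 9 without the mixed cells. Syt1, the calcium sensor of release, had log2 ratios of -0.03, 1.91 and 2.46, and Snap25, of the fusion complex, -0.49, 2.53 and 1.82. Olfactory axon guidance and adhesion genes gave 0 of 14, 0 of 13 and 0 of 13, with medians of -0.24, 0.63 and 0.58. Among them Ncam1 stood at 1636, 1682 and 2238 CPM against 886, 733 and 660.4, and Robo2, a Slit receptor, at 926, 1929 and 1905 against 682, 1247 and 1125. No listed guidance gene passed 4-fold with all chosen cells, and 0 of 14, 3 of 14 and 3 of 13 were 4-fold higher without the mixed cells, with 1 lower at E15.5. Primary cilium genes gave 0 of 10, 0 of 9 and 1 of 10 with medians of 0.45, 0.39 and 0.46, the 1 gene being Tuba1a, a neuronal alpha-tubulin, and 0, 2 and 1 were higher without the mixed cells. Scn9a, a sodium channel of sensory and olfactory neurons placed in the peripheral-neuron list, had 22, 131 and 225 UMIs and ratios of 2.00, 3.43 and 4.60.

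**Figure D2:**
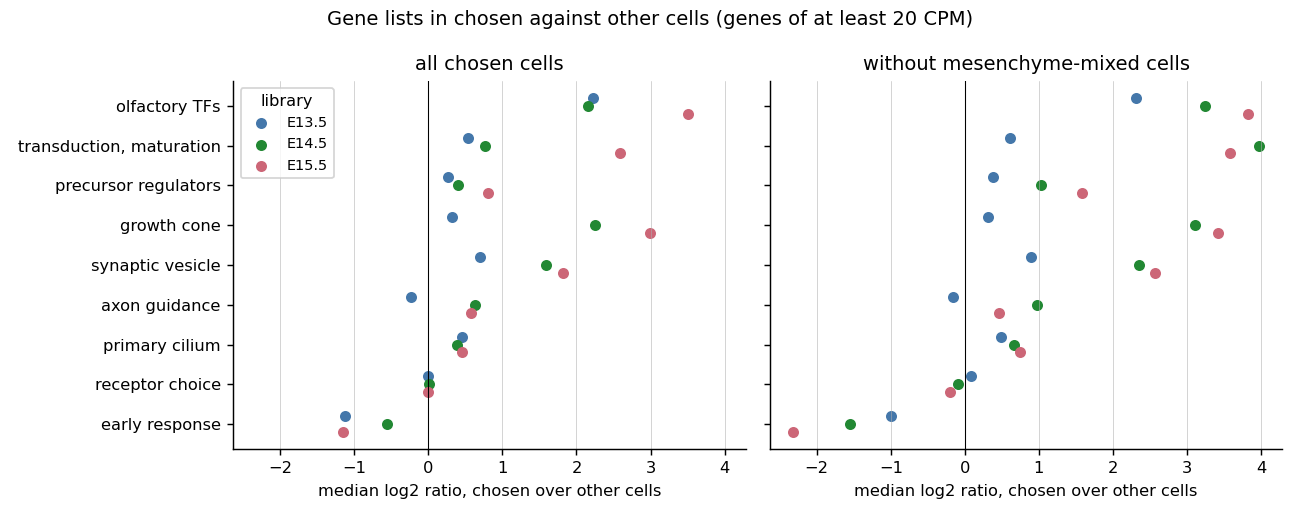
Median log2 ratio (x axis) of each gene list's counted members in chosen over other cells, by library, with all chosen cells on the left and without mesenchyme-mixed cells on the right. The transcription factors stood at 2.22, 2.16 and 3.51 with all cells, and the growth-cone genes at 0.32, 2.25 and 3.00.

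Olfactory and vomeronasal receptor genes gave a readout that the rule did not use. The files held 1481 genes of the Olfr, Vmn1r, Vmn2r and Taar families. A receptor gene with at least 3 UMIs was found in 1 of 62 chosen cells at E13.5 (1.61%, 0.0408 to 8.66), in 29 of 118 at E14.5 (24.6%, 17.1 to 33.4), then in 36 of 158 at E15.5 (22.8%, 16.5 to 30.1). In the other cells the shares were 0.413%, 0.664% and 0.725%, and 15, 11 and 18 cells. Without Olfr1369-ps1, Olfr655 and Olfr1033, which were found widely, the other cells stood at 0.0551%, 0.241% and 0.121% and the chosen cells at 1.61%, 22.9% and 20.3%. These 3 were singled out after their counts were seen. In the unmixed cells the shares were 1 of 54 (1.85%), 16 of 75 (21.3%, 12.7 to 32.3) and 27 of 123 (22.0%, 15 to 30.3).

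Any receptor UMI at all was a weaker sign. It was found in 22.6%, 51.7% and 48.1% of chosen cells, in 7.33%, 11.9% and 12.4% of other cells, and in 17.9%, 17.9% and 13.6% of endothelial or myeloid cells, so the E13.5 share was near that background. The E13.5 cell, with 4 UMIs of Olfr777 and 7 UMIs of other receptors, had fewer UMIs of its leading receptor than of the others. Near-identical receptor copies can split or lose reads, so these shares depend on the counting.

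The 66 cells with a receptor of at least 3 UMIs used many genes. They had 56 different leading receptors on 15 chromosomes, 50 of them in 1 cell only, with 12 receptors on chromosome 2, 7 on chromosome 7 and 7 on chromosome 17. The chromosomes of all 1481 receptor genes were not counted, so these numbers do not show a preferred chromosome. Olfr1369-ps1 led in 5 cells, Olfr15 in 3, and Olfr1271, Olfr666, Olfr951 and Vmn2r22 in 2 each. Olfr1369-ps1, and Olfr655, which led in 1 cell, are among the receptors also found widely in other cells. E14.5 and E15.5 shared 2 leading receptors. The highest counts were 102 UMIs of Olfr1323 and 55 of Olfr745 at E14.5, and 60 of Olfr1419, 52 of Vmn2r100 and 50 of Olfr689 at E15.5, each in a single cell.

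Within a cell the receptor UMIs came mostly from 1 gene. The leading receptors summed to 888 UMIs over the 66 cells and all other receptors in the same cells to 96. No other receptor had a UMI in 37 cells, a second receptor reached 3 UMIs in 5 cells at E14.5 and 1 at E15.5, and in 3 cells the other receptors together exceeded the leading gene. At E14.5 the leading gene held 85.7% of these UMIs, with a median of 6 UMIs, while E15.5 gave 95.2% and a median of 9. Choosing the highest gene of each cell favours a high share, so the values are a description.

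**Figure D3:**
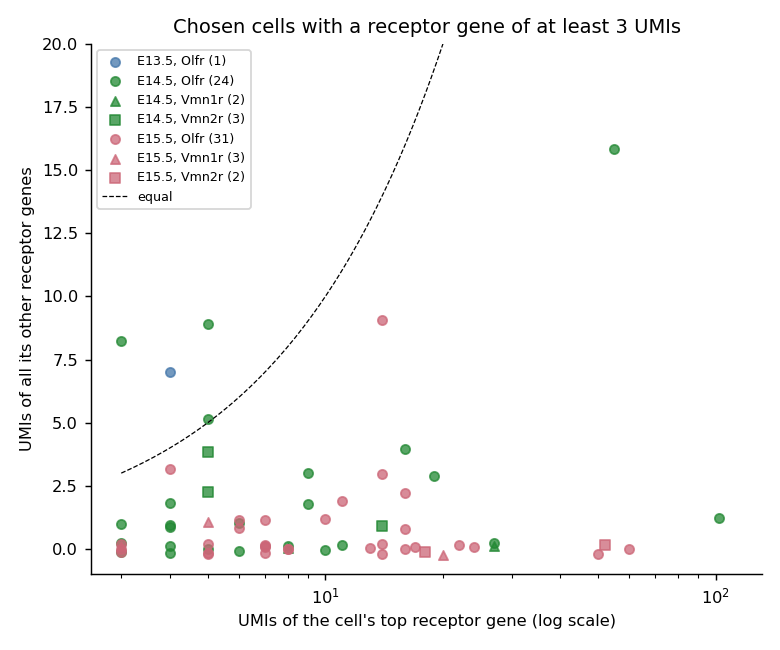
UMIs of the leading receptor gene (x axis, log scale) and of all other receptor genes (y axis, points shifted slightly up or down) in each of the 66 chosen cells with a receptor of at least 3 UMIs, by library and family; the dashed curve marks equal numbers. 3 cells lie above the curve, 1 has equal numbers, and 37 have no other receptor UMI.

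By family, the leading receptor was an Olfr gene in 56 cells, a Vmn1r gene in 5 and a Vmn2r gene in 5. Gng13 had a UMI in 38 of the 56 Olfr cells, 1 of the 5 Vmn1r cells and 1 of the 5 Vmn2r cells. Gng8 was in 33, 3 and 5 of them, Gnal in 16, 0 and 0, and Atf5 in 54, 5 and 5. Meis2, a homeodomain factor of the Vmn1r class of vomeronasal neurons, was in 18 of 56, 5 of 5 and 1 of 5, but without the mixed cells in 4 of 37, 4 of 4 and 0 of 3. Most of the Olfr cells with Meis2 were thus mixed cells. The vomeronasal groups are too small for a comparison. Of the 4 counted genes of the vomeronasal list 0, 0 and 2 were 4-fold higher with all chosen cells, and 0, 2 and 2 in the unmixed cells. Bcl11b, a zinc-finger factor, and Gnao1, a G protein alpha subunit, had log2 ratios of 0.58, 1.87 and 2.01 and 0.13, 1.73 and 2.41 over the whole set.

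Chosen cells with a receptor had Lhx2 less often than the rest in both later libraries. They were deeper, with medians of 3818 against 2196 UMIs at E14.5 and 4338 against 2609.5 at E15.5, so shares were compared at 1500 UMIs, in 28 against 63 cells and 31 against 87 cells. Atf5 was in 71.4% (51.3 to 86.8) against 34.9% (23.3 to 48.0) and 71.0% (52.0 to 85.8) against 51.7% (40.8 to 62.6), with overlapping intervals at E15.5. Lhx2 was in 10.7% (2.27 to 28.2) against 49.2% (36.4 to 62.1) and 16.1% (5.45 to 33.7) against 44.8% (34.1 to 55.9). Neurod1 was in 0% (0 to 12.3) against 25.4% (15.3 to 37.9) at E14.5, while the intervals overlapped at E15.5, at 3.23% against 17.2%. Nhlh1, also a listed precursor regulator, went the other way at E14.5, at 21.4% against 9.52%. At E15.5 it was in 6.45% against 14.9%, and its intervals overlapped in both libraries.

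The Lhx2 intervals did not overlap between the receptor cells and the rest in either library. Gap43 belongs to the rule, which sets part of its share, so its values are a description only: 78.6% against 23.8% at E14.5 and 77.4% against 32.2% at E15.5. Ebf2 intervals overlapped, at 53.6% against 73.0% in the E14.5 library and 80.6% against 80.5% in the E15.5 library. Omp in sum was at 65.8 against 2.14 CPM and 43.3 against 10.9 CPM, resting on 18 against 1 and 10 against 5 UMIs. In the unmixed cells Omp was at 87.7 against 7.25 CPM at E14.5, resting on 5 UMIs of 1 receptor cell and 1 UMI of the rest, and at 68.5 against 15.4 CPM at E15.5, on 8 and 4 UMIs. Without the mixed cells, in 15 against 35 and 23 against 63 cells, Lhx2 was in 13.3% against 62.9% and 13% against 50.8%. The intervals treat cells as independent within 1 library and say nothing of other embryos.

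**Figure D4:**
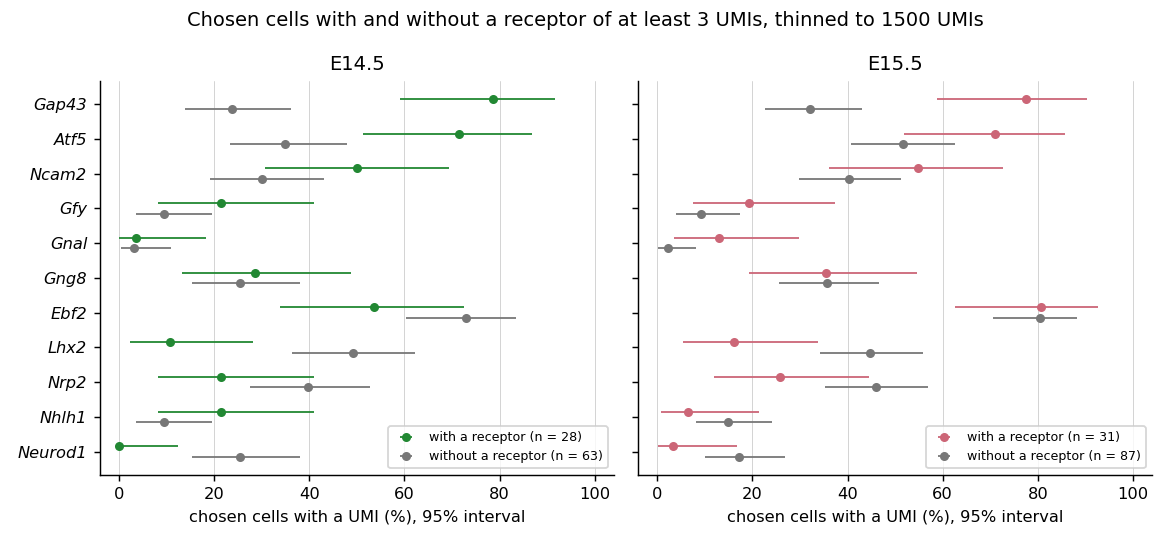
Share of chosen cells (x axis, percent, with exact binomial 95% intervals) with a UMI of each gene after thinning to 1500 UMIs, for cells with a receptor of at least 3 UMIs (colour, 28 at E14.5 and 31 at E15.5) and for the rest (grey, 63 and 87). Lhx2 stood at 10.7% and 16.1% in receptor cells and 49.2% and 44.8% in the rest; Gap43 is a choosing gene.

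Between stages, genes of the chosen cells were called at a 2-fold difference. From E13.5 to E14.5 1151 of 7631 genes were higher (15.1%) and 849 lower (11.1%), from E14.5 to E15.5 294 of 7795 were higher (3.77%) and 389 lower (4.99%), and from E13.5 to E15.5 1079 of 7491 were higher (14.4%) and 738 lower (9.85%). Without the mixed cells the shares were 14.8% and 15.2%, 7.22% and 6.41%, and 14.4% and 13.2% in the same order. Fewer genes thus passed 2-fold between E14.5 and E15.5 than between either of them and E13.5, the library with the fewest chosen cells. The comparisons share libraries. The balance of higher and lower depended on the scaling. With median-of-ratios scaling 1678 genes were higher and 535 lower from E13.5 to E14.5, 307 and 384 from E14.5 to E15.5, and 1575 and 476 from E13.5 to E15.5. That scaling added a median of 0.24 to the log2 ratios of the named genes against E13.5.

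Between E14.5 and E15.5 the lists are given first without the mixed cells, where 7.22% of all genes were higher and 6.41% lower at E15.5. Of 12 transcription factors and 12 transduction genes none was 2-fold higher or lower, with medians of 0.30 and 0.02. Growth-cone genes gave 1 higher and 1 lower of 17 (median -0.02), synaptic genes 1 higher of 9, receptor-choice genes none of 7, and precursor regulators 2 lower of 10 (median -0.23). With all chosen cells 3 of 12 transcription factors were higher at E15.5 and none lower (median 0.60), no transduction gene of 10 and no growth-cone gene of 17 passed (medians 0.34 and 0.42), 1 of 9 synaptic genes was higher, and none of 7 receptor-choice genes or 9 precursor regulators passed. Markers of other cells also differed there: 5 of 10 epithelial genes were higher at E15.5 (median 1.05, summed 465 to 1022 CPM) and 4 of 10 mesenchyme genes lower (median -0.99). In the unmixed cells 2 of 7 epithelial genes were higher and 1 lower (median 0.26). Of 6 erythroid genes there, 3 were lower and none higher (median -0.88, summed 18459 to 9941 CPM). The part of these other-cell markers in the list counts was not tested. Lhx2 stood at 559 CPM (459 to 674) at E14.5 and 499 CPM (430.1 to 576) at E15.5 without the mixed cells, and Atf5 at 949 and 950.0 CPM.

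Against E13.5, 14.8% of all genes were higher and 15.2% lower at E14.5 without the mixed cells. Of the lists without these cells, 7 of 9 transduction genes were 2-fold higher at E14.5 (median 1.67), 3 of 12 transcription factors were higher and none lower (median 0.54), and 1 growth-cone gene was higher and 6 lower of 17 (median -0.30). With all chosen cells 9 of the 18 transduction genes had no UMI at E13.5. Such a gene was counted only through its E14.5 level and could only be called higher, so the transduction count is a description. Synaptic genes gave 3 higher and 3 lower of 9 (median 0.95). With all chosen cells the transcription factors went the other way, with none higher and 3 lower (median -0.19, smaller than the shift of 0.24 under the other scaling), and 3 of 7 transduction genes were higher (median 0.77). Growth-cone genes then gave 0 higher and 10 lower of 17 (median -1.14), and synaptic genes 0 higher and 4 lower of 9 (median 0.21). The direction for the transcription factors thus depended on the mixed cells. From E13.5 to E15.5 epithelial genes were higher for 6 of 8 with all chosen cells (median 1.51) and for 4 of 7 in the unmixed cells (median 1.68). From E13.5 to E14.5 the unmixed cells had 3 of 3 counted mesenchyme genes higher (median 2.70). Of 5 erythroid genes 3 were higher and 1 lower (median 1.01), and 3 of 6 early-response genes were lower. With all chosen cells 10 of 10 mesenchyme genes were higher (median 3.31). The part of these markers in the list counts was not tested. In the unmixed cells Atf5 was at 233 CPM at E13.5 and 949 CPM at E14.5, with an interval of 2.96 to 5.68 for the fold, against 1.48 to 2.70 with all chosen cells. Unmixed cells had Stmn1 going from 3811 to 1518 CPM, a fold interval of 0.348 to 0.456, against 0.200 to 0.246 with all chosen cells. In the other cells of the same libraries Stmn1 went from 2152 to 349 CPM.

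**Figure D5:**
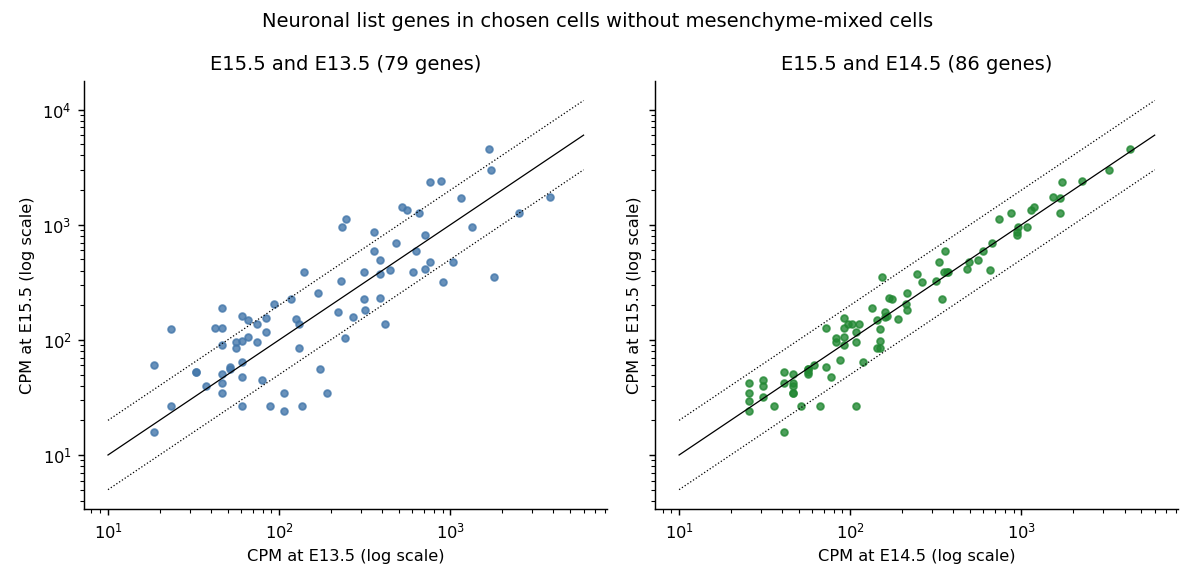
Level (CPM, log scales) of neuronal and olfactory list genes with more than 3 UMIs, in chosen cells without mesenchyme-mixed cells, at E15.5 (y axis) against E13.5 (left, 79 genes) and E14.5 (right, 86 genes); the solid line marks equal levels and the dotted lines 2-fold. 82 of the 86 genes lie within 2-fold of E14.5 and 49 of the 79 within 2-fold of E13.5.

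The single genes with the largest stage differences often rested on 1 cell. Olfr1323 had all its 102 UMIs at E14.5 in 1 cell, Ptgds its 76, and Cdr2l 191 of 197. Adam2 had 74 of 139 UMIs in 1 cell at E14.5 and Cntn5 201 of 364, while at E15.5 BC025920 had 86 of 92 and Rap1gap 91 of 123. Genes lower at E14.5 and E15.5 than at E13.5 were Mir124-2hg, a neuronal microRNA host gene, with 30, 0 and 0 UMIs, Igfbpl1 with 60, 4 and 4, Ncan, a brain proteoglycan, with 29, 2 and 5, and Erbb4 with 203, 22 and 15. The embryonic globin gene Hbb-y had 814, 86 and 11 UMIs, 697 of the first in 1 cell. Mir124-2hg, Igfbpl1, Ncan and Hbb-y also went from 101 to 0, 191 to 2.54, 124 to 1.61 and 3462 to 171 CPM in the other cells of E13.5 and E14.5.

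Gnrh1, the gonadotropin-releasing hormone gene whose neurons also arise in the nasal placode, had 187 UMIs in 1 chosen cell at E13.5, 0 at E14.5, then 1 at E15.5. It does not describe the set.

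Markers of other cell types moved with some results. The 10 mesenchyme genes summed to 364, 4981 and 2483 CPM in the chosen cells, none of the 10 being at 0, with list medians of -0.95, -0.56 and -1.74. Globin and other erythroid genes summed to 9420, 16253 and 9844 CPM against 12717, 8694 and 8770, with the highest sum in the chosen cells of E14.5. The 6 myeloid genes were all at 0 at E13.5, and 0 and 1 were at E14.5 and E15.5; they summed to 0, 94.4 and 37.6 CPM against 55.2, 222 and 281, and the endothelial genes to 3.64, 87.7 and 43.4 against 25.7, 136 and 136. Of 12 epithelial genes 1 of 4, 0 of 5 and 2 of 10 counted were 4-fold higher, and 2 of 4, 1 of 6 and 1 of 8 in the unmixed cells. Epcam, an epithelial adhesion protein, stood at 306, 175 and 382 CPM against 86.7, 148 and 129.5, and Cldn3, a tight-junction protein, had log2 ratios of 2.97, 1.73 and 3.20. In the unmixed cells Epcam was at log2 ratios of 2.02, 1.21 and 1.66.

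Early-response genes, which can be induced by dissociation, had median log2 ratios of -1.13, -0.56 and -1.16 over the 8, 10 and 10 genes counted, of which 1, 0 and 0 were 4-fold lower. Leaving out the mixed cells, 0 of 8, 3 of 10 and 5 of 10 were 4-fold lower. Egr1 stood at 200.4, 358 and 252 CPM against 437, 428 and 589 and Fos at 186, 166 and 169 against 237, 298 and 459. Mitochondrial UMIs were at a median of 0.477%, 0.463% and 0.497% of each chosen cell's UMIs, against 0.502%, 0.442% and 0.545% in the others. The part of these markers in the results above was not tested.

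Genes of other neuron classes were also measured. Cortical excitatory genes summed to 488, 745 and 473 CPM in the chosen cells and 845, 1002 and 889 in the others, and none of the 6, 3 and 3 counted passed 4-fold with all chosen cells. Leaving out the mixed cells, 1 of 6 was lower at E13.5, while 1 was higher and 2 lower of 4 in each later library. GABAergic genes summed to 324, 159 and 172 CPM against 629, 96.2 and 90.0, so the sums were above those of the other cells at E14.5 and E15.5, with Dlx6os1, a Dlx locus RNA, at -0.49, 1.61 and 2.33. Peripheral sensory and autonomic genes summed to 189.5, 324 and 402 CPM against 109, 90.0 and 95.7. Of 3 counted 1, 1 and 2 were 4-fold higher, with medians of 2.00, 1.87 and 2.77, and 2 of 3 at each stage without the mixed cells. Prph, an intermediate filament of peripheral neurons, had 6, 40 and 27 UMIs and ratios of 3.31, 1.87 and 2.77, the first from too low a level to be counted. Retinal genes summed to 32.8, 24.3 and 56.5 CPM against 20.5, 12.9 and 23.1. Pituitary genes summed to 72.9, 90.4 and 62.2 CPM against 70.4, 93.7 and 228, with 2 of 3 counted 4-fold lower at E15.5. Glial genes summed to 131, 74.2 and 47.8 CPM against 195, 161 and 116, and microvillous-cell genes to 7.29, 12.1 and 24.6 against 3.06, 30.9 and 17.2. Motile-cilium genes summed to 117, 105 and 166 CPM against 20.9, 97.6 and 98.8. Chosen cells with a UMI of 3 or more motile-cilium genes numbered 3, 3 and 5.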

How the data were processed

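Palatal shelf cells of 3 embryonic stages were measured by droplet single-cell RNA-seq, with 1 library of 3 pooled embryos per stage. The authors deposited, per the file headers, a sparse matrix for each library whose values are whole UMI counts of genes in barcodes. The submitters' processing notes name Cell Ranger 6.1.2 and mm10; other settings are not given in the sources used here. Depth was 274406 to 741175 UMIs over the chosen cells of a library.

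Barcodes with at least 500 genes were used, and counts of the chosen cells and of all other cells were summed per library and scaled to CPM. Gene coordinates are those of the GENCODE annotation of GRCm38, the assembly also called mm10, and promoters are from RefSeq. Levels have exact Poisson 95% intervals, ratios exact conditional intervals and shares Clopper-Pearson intervals, all for counting error only. Log2 ratios add 1 CPM, and genes were counted at a mean of both groups of at least 20 CPM. With 1 library per stage no test was made. Cells were thinned to 1500 UMIs for shares. A count of 0 was taken to allow 3 UMIs. Doublets were scored with scrublet in scanpy 1.11.5 and not removed. Python 3.11.15, numpy 2.4.6, scipy 1.17.1 and pandas 2.3.3 were used, and the steps were tested on simulated data.

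The cells and all gene lists were chosen with earlier results of these data known. Named genes were the 13 choosing genes, the 4 most abundant members of each list with at least 3 UMIs, the 12 unlisted genes with the largest smallest ratio over stages (of those with at least 20 CPM in every library), the 6 largest stage differences each way of at least 100 CPM, Gnrh1, and receptor genes leading in 2 or more cells. The 10 label-check markers are also named. Neurog1, Nhlh1, Nhlh2, Uncx, Foxj1 and the receptors given by their highest counts were named after their values were seen, as were the 3 promoters shown. In all 13 alternatives were tried, 11 of them planned. Some listed genes are not reported here.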

Additional observations from a re-analysis of the deposited data

Results flagged for a closer look

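Cells with fewer than 500 genes were left out of the set, yet 5, 5 and 9 of them in stage order passed all the gene conditions. Foxj1, a regulator of motile cilia, had log2 ratios in chosen over other cells of 3.32, -0.85 and -2.36 in stage order, so the direction differed between libraries. The ratios rest on 5, 8 and 1 UMIs in the chosen cells, and the difference was not tested.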

How the results depend on the processing

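The share of cells chosen moved with the rule. Asking for 3 of the 7 genes gave 0.840%, 5.07% and 4.96% in stage order, leaving out Fstl5 and Tesc 0.813%, 4.45% and 4.77%, asking for 1000 genes 2.32%, 8.53% and 7.27%, dropping the exclusion 3.33% at E13.5, thinning 1.28% at E13.5, and leaving out the mesenchyme-mixed cells 4.33% and 4.72% at E14.5 and E15.5. Receptor cells after thinning were 0% at E13.5 and 16.4% at E14.5. Genes at 4-fold against other cells numbered 409 with 3 genes, 393 without Fstl5 and Tesc and 7 without the exclusion at E13.5. In stage order they were 1019, 1029 and 1372 after thinning, 53, 76 and 215 at 50 CPM, 1534, 736 and 1489 with no filter, 241, 579 and 957 as means over cells, and 249, 1265 and 1278 without mixed cells. Between stages (E14.5 over E13.5, E15.5 over E14.5, E15.5 over E13.5) 2-fold genes numbered 938, 242 and 824 at 50 CPM and 8463, 6095 and 8367 with no filter, and 1933 for E15.5 over E14.5 after thinning. Log2 ratios that changed sign follow. With 3 genes they were Gnrh1 at E13.5 (-4.42) and Hba-x E14.5 over E13.5 (0.14). Without Fstl5 and Tesc they were Gnrh1 (-4.42), Cdr2l at E14.5 (-2.68) and Cdr2l E15.5 over E14.5 (1.19), and without the exclusion Ntrk2 E14.5 over E13.5 (-0.019). After thinning they were Ptgds (-1.85) and Cdr2l (-0.42) at E14.5, Aox2 at E15.5 (-0.35), Mef2c (-0.16) and Hba-x (0.25) E14.5 over E13.5, Cnpy1 (-0.11) and Naaladl2 (0.36) E15.5 over E14.5, and Krt18 E15.5 over E13.5 (-1.26). As means over cells Aox2 at E15.5 was -0.017. Without mixed cells, a set added after the data were seen, they were Ptgds (-1.25) and Cdr2l (-0.49) at E14.5, Cbr2 (-0.10) and Aox2 (-2.14) at E15.5, Stmn2 (0.19), Mef2c (-0.18), Dlx6os1 (0.037) and Cntn5 (-0.57) E14.5 over E13.5, Mef2c (1.10), Krt18 (-0.23), Pecam1 (0.75), Cdr2l (0.92) and Aox2 (-1.26) E15.5 over E14.5, and Krt18 E15.5 over E13.5 (-0.19). The cause was not tested. Leaving out the highest doublet scores reversed none of 650 ratios and moved 8 by 1 or more. No paired analysis was possible because each stage is 1 library.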
